A study of Mus musculus with 22 samples.

Results

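Polysomal RNA was compared with total RNA in wild-type (WT) mouse bladder organoids to describe which classes of transcript made up a larger or smaller share of the RNA on polysomes than of the RNA in the whole culture. The 6 libraries were chosen by their labels: the polysome fraction and the total mRNA of the primary bladder urothelial organoids with the genotype ARID1A WT, replicates 1 to 3 of each, paired by replicate number. They are 6 of the 22 libraries of the series. Organoids are cultures of epithelial cells grown in 3 dimensions. The same 2 kinds of library from ARID1A KO organoids, 3 of each, served as a second set of cultures that the WT comparison did not use. The labels give no sex, age or strain, do not say how many animals the cultures came from, and do not say how ARID1A was removed. The p-values therefore measure the spread between these samples, which may be technical.

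Polysomes are mRNAs carrying several ribosomes, and a sucrose gradient separates them by their mass from free mRNA, ribosomal subunits and single ribosomes. The share of an mRNA found there reflects how often ribosomes start on it, how long they stay and how long its coding sequence is, and noncoding RNAs kept in the nucleus are largely absent from it. mRNAs of ribosomal proteins and elongation factors carry a 5' terminal oligopyrimidine (TOP) tract, a run of C and T that begins with C at the very start of the transcript, through which the mTOR pathway sets their loading on ribosomes. Urothelium, the lining of the bladder, has basal cells that express keratins 5 and 14 and superficial cells that express uroplakins.

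Each library held between 64911189 and 72852006 counts over 24421 genes, and levels are given as CPM, the share of a library's counts on a per-million scale. Levels of single genes from Ndufb2 onward were scaled by TMM factors, which lay between 0.930 and 1.04. Marker levels, marker sums and the check of Arid1a are CPM without that scaling. The ribosomal RNA precursor Rn45s took 2.44 to 2.58% of counts in total RNA and 1.68, 0.208 and 2.70% in polysome replicates 1, 2 and 3. Polysome libraries differed from each other more than total RNA libraries did. The chi-square per degree of freedom was 82.8 to 175 against 12.3 to 19.9. It included Rn45s, whose uneven share among the polysome libraries adds to it, and was not computed without that gene. Arid1a, the targeted gene, stood at 136, 154 and 138 CPM in WT total RNA and at 90.1, 89.9 and 101 CPM in KO total RNA. All 3 KO values lay below the WT values, and none was near 0 in a count over the whole gene. Luminal and basal urothelial markers were present in every library, with summed levels of 3691 to 3866 CPM and 14289 to 17072 CPM in total RNA. Of the fibroblast, immune, endothelial, muscle and red cell markers, only Vim, Col1a1, Cd14, Cd68, Acta2 and Col1a2 exceeded 1 CPM in any of the 6 libraries. Col1a1 reached 3.71, Cd68 11.2, Acta2 7.95 and Col1a2 1.07 CPM. Ptprc, Cd3e and Kdr were at or near 0, and the globin genes were at 0. The fibroblast sum of 88.8 to 91.1 CPM in total RNA and 28.6 to 35.3 CPM in polysomes was nearly all vimentin (Vim), and the immune sum of 68.4 to 84.6 CPM and 101 to 128 CPM was mostly Cd14.

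A log2 ratio below is polysome over total RNA, so a positive value means a larger share of polysomal than of total RNA. It is a relative measure in which a rise in some transcripts lowers the share of others, and the ratio says nothing of the absolute amount of RNA on ribosomes. Genes were called at an adjusted p under 0.05 in edgeR's quasi-likelihood test with the replicate number as a block. In that fit the prior degrees of freedom were infinite for 12291 of the 13020 genes, whose spread was thus set to the common trend, and p-values were very small. Adjusted p-values printed for single genes therefore come from the fit without the block, and the error printed for a log2 ratio is the SD over the 3 pairs.

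The polysomal and the total RNA of these organoids had different compositions across most of the transcriptome. Of 13020 genes tested, 4753 were higher in polysomes and 4745 lower, together 72.9%. At least 2-fold differences were found for 1658 genes higher (12.7%) and 1930 lower (14.8%). For 74.7% of genes tested the 3 polysome libraries did not overlap the 3 total RNA libraries. The 25th and 75th percentiles of the log2 ratios were -0.66 and 0.59, and the 1st and 99th were -2.27 and 1.93. Since so many genes were called, a gene list is read against 36.5% called higher and 36.4% called lower.

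The genes with the highest ratios encode short proteins. Ndufb2, a small subunit of respiratory complex I, stood at 25.8, 24 and 25.7 CPM in total RNA and at 121, 136 and 173 CPM in polysomes. All 3 polysome libraries lay far above all 3 total RNA libraries, a log2 ratio of 2.49 ± 0.26 (SD, n = 3 pairs, adjusted p = 1.35e-09) or 5.63-fold. Magoh, a core protein of the exon junction complex, had 50.1, 49.5 and 55.9 CPM in total RNA and 227, 318 and 334 CPM in polysomes. Its log2 ratio was 2.48 ± 0.27 (SD, n = 3 pairs, adjusted p = 1.93e-09), again with no overlap. Prdx1, a peroxide-reducing enzyme and an abundant mRNA, rose from 496, 482 and 511 CPM to 2154, 2966 and 3170 CPM. The 14 genes with the highest log2 ratios under the naming rule ran from Ndufb2 down to Zbtb8os at 2.22. They also held Fcf1 (2.44) of ribosome assembly, the glutathione transferase Mgst3 (2.42), Pdcd10 (2.32), the centrin Cetn3 (2.29), the mitochondrial ribosomal protein Mrpl20 (2.26), the proteasome subunit Psmb3 (2.26), complex IV-associated Ndufa4 (2.25), the splicing cyclophilin Ppih (2.24), the myosin light chain Myl6 (2.22) and Fkbp3 (2.22). In each of these 14 the value of polysome replicate 1 was the lowest of the 3 polysome libraries.

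Very long mRNAs, noncoding RNAs and mRNAs of the translation machinery led the genes that were lower in polysomes. Ubr4, a ubiquitin ligase of 5180 residues, stood at 158, 179 and 163 CPM in total RNA and at 29.2, 23.8 and 17.8 CPM in polysomes. Its log2 ratio was -2.84 ± 0.38 (SD, n = 3 pairs, adjusted p = 1.8e-09), with no overlap between the groups. Rps12, a protein of the small ribosomal subunit with 132 residues, fell from 1716, 1579 and 1706 CPM to 223, 268 and 250 CPM, a log2 ratio of -2.76 ± 0.19 (SD, n = 3 pairs, adjusted p = 4.81e-10). A short mRNA and a very long one were thus both among the lowest. Others of the 14 lowest were Soga1 (-2.93), the nuclear RNA Neat1 (-2.78), the snoRNA host Snhg6 (-2.77), the transcription factor Hivep1 (-2.73), the kinase Cdc42bpb (-2.72), Cad (-2.72), whose protein starts pyrimidine synthesis, the poly(A)-binding protein Pabpc1 (-2.68), Kif26b (-2.62), the transcriptional coregulator Hcfc1 (-2.62), Gcn1l1 (-2.62), which senses stalled ribosomes, and the nucleolar Tcof1 (-2.62).

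**Figure D1:**
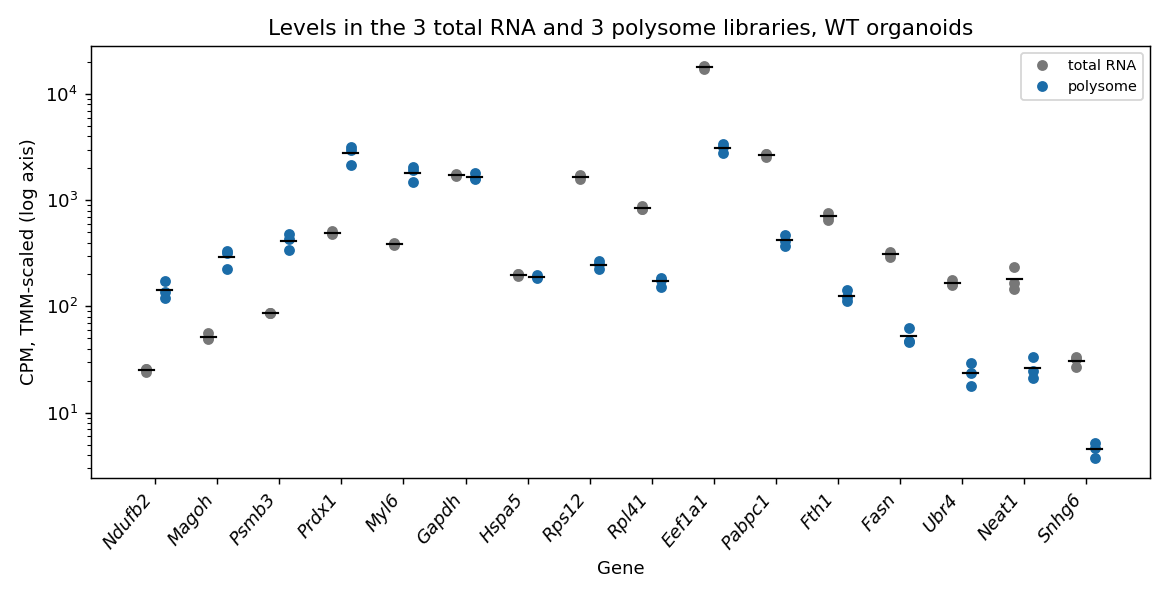
Levels of 16 genes in the WT libraries: the y axis is CPM scaled by TMM factors on a log axis, each point is a library (grey total RNA, blue polysome, 3 of each) and the black bars are group means. The polysome points lie above the total RNA points for Ndufb2, Magoh, Psmb3, Prdx1 and Myl6, overlap them for Gapdh and Hspa5, and lie below them for the genes from Rps12 to Snhg6.

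Coding length ordered the ratios more closely than any other feature of the transcript examined. Over 12394 protein-coding genes with an annotated length, Spearman's rho of coding length and log2 ratio was -0.63, and it was -0.60, -0.60 and -0.63 in pairs 1, 2 and 3. These are correlations across genes, which are not independent replicates, so no p is given. The median log2 ratio was 0.38 for 262 genes under 100 residues, 0.80 for 1366 genes of 100 to under 200, 0.51 for 3589 genes of 200 to under 400 and -0.12 for 4586 genes of 400 to under 800. It was -0.79 for 2058 genes of 800 to under 1600 and -1.41 for 533 genes of 1600 residues or more. The order is therefore not monotonic at the short end, where the smallest class lies below the next. From 100 residues upward the medians fell with length, although a longer coding sequence can hold more ribosomes. Why the ratio fell with length was not tested.

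In the class of 100 to under 200 residues 71.2% of genes were called higher and 12% lower, and in the class of 1600 or more 485 of 533 genes (91%) were lower and 3 were higher. Those 3 long mRNAs were 9530053A07Rik at 1.67, Cfap43 at 0.52 and the channel kinase Trpm7 at 0.26. Trpm7 had 78.6, 72.7 and 76.1 CPM in total RNA and 86.5, 99.8 and 85.9 CPM in polysomes, and its groups did not overlap. Other features were less closely ranked with the ratio: rho was -0.50 for transcript length, -0.41 for exon number, -0.26 for GC content, -0.14 for 3' UTR length and -0.10 for 5' UTR length. Transcript length and exon number share much of their order with coding length (rho 0.68 and 0.73), whereas GC content does not (rho 0.01). Among the 533 longest genes rho with GC content was -0.53, and it was -0.21 among the 262 shortest. Pair 2 gave a rho with GC content of -0.34, against -0.20 in pair 1 and -0.19 in pair 3. RNA fragmentation in the gradient and length bias of the library preparation could not be measured from counts per gene, and their part in the relation with length was not tested.

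**Figure D2:**
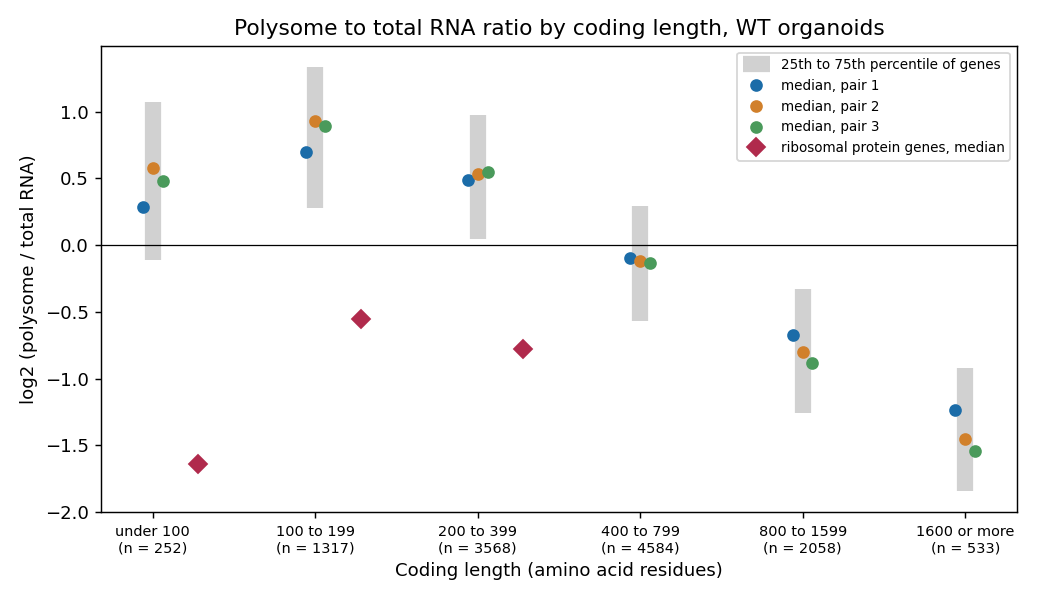
Log2 ratio of polysome to total RNA (y axis) by coding length class (x axis, amino acid residues) for protein-coding genes other than ribosomal protein genes. Coloured points are the class medians in each of the 3 pairs, grey bars span the 25th to 75th percentile of genes and red diamonds are the medians of the ribosomal protein genes in the 3 shortest classes. Class medians fall from the class of 100 to 199 residues upward in all 3 pairs, and the ribosomal protein genes lie below zero where other short genes lie above it.

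Because length orders the ratios, lists are also given relative to the median of all protein-coding genes in the same length class. This centring was chosen after the data were seen and is a description only.

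Ribosomal protein mRNAs, though short, lay largely on the lower side. Of 48 large-subunit genes tested 36 were lower and 5 higher, with a median log2 ratio of -0.63. Of 34 small-subunit genes 29 were lower and none was higher, with a median of -0.91. Relative to their length class the medians were -1.26 and -1.65, and 46 of 48 and 34 of 34 genes lay below the median of their class. Rplp0, the stalk protein of the large subunit, fell from 4880, 4851 and 4812 CPM to 834, 904 and 950 CPM (log2 ratio -2.44 ± 0.10, SD, n = 3 pairs, adjusted p = 4.81e-10). Rpl41, at 25 residues the shortest of them, fell from 875, 825 and 830 CPM to 154, 177 and 187 CPM (log2 ratio -2.29). The family was not uniform: Rpl34 (1.65), Rpl36al (1.13), Rpl30 (0.63), Rpl27 (0.30) and Rpl38 (0.24) were higher in polysomes, and Rps27a (-0.01), Rps27l (-0.06) and Rps3 (-0.17) did not pass the test. Many ribosomal protein genes have processed copies elsewhere in the genome. Reads shared with such copies can be lost or split in counting, so single values are uncertain, though both fractions were counted in the same way.

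Elongation factors and other mRNAs known for TOP tracts were on both sides. Of 22 tested 14 were lower and 7 higher, with a median of -0.66. Eef1a1, which brings aminoacyl-tRNA to the ribosome, fell from 17055, 18546 and 17816 CPM to 3204, 3417 and 2766 CPM. Its log2 ratio was -2.51 ± 0.15 (SD, n = 3 pairs, adjusted p = 8.18e-10), and every polysome library lay far below every total RNA library. Eef2, which moves the ribosome along the mRNA, had a log2 ratio of -2.03 ± 0.14, Pabpc1 -2.68 ± 0.12 and Tpt1, the translationally controlled tumour protein, -1.70 ± 0.17 (SD, n = 3 pairs each). Higher in polysomes were Btf3 (1.01), Eif3m (0.59), Eif3k (0.54), Eef1d (0.51), Npm1 (0.48), Naca (0.44) and Nap1l1 (0.22). Subunits of one factor could differ in direction: of eIF3, Eif3f (-2.02), Eif3h (-1.34), Eif3l (-1.05) and Eif3e (-0.54) were lower, and of eEF1, Eef1g (-1.80) and Eef1b2 (-1.66) were. Eef2k, the kinase that inhibits eEF2, had 105, 102 and 102 CPM in total RNA and 88.0, 73.9 and 76.3 CPM in polysomes, a log2 ratio of -0.38 ± 0.11 (SD, n = 3 pairs, adjusted p = 0.00127).

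The starts of some of these mRNAs are shown because TOP tracts define the class. Each line gives the 10 bases before and the 20 bases from the RefSeq start in the GRCm38.p6 build, 5' to 3', with capitals for the longest run of at least 5 C or T that begins with C within 5 bases of the start. For a gene with several annotated starts, such as Gas5 with 2, the start with the longest run was taken. Such genes had more chances to hold a run in the counts below. Eef1a1 is at chr9:78481705-78481734 (minus strand), Rps6 at chr4:86857348-86857377 (minus), Rps12 at chr10:23787190-23787219 (minus), Rplp0 at chr5:115559457-115559486 (plus), Gas5 at chr1:161035156-161035185 (plus) and Ndufb2 at chr6:39592555-39592584 (plus).
Eef1a1: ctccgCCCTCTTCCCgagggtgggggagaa
Rps6: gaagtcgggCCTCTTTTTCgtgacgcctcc
Gas5: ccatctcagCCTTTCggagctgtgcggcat
Rps12: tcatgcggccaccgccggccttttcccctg
Rplp0: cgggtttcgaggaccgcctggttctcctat
Ndufb2: gtcacgggccgggactcggggaagtgacgc
Eef1a1, Rps6 (log2 ratio -1.32) and the noncoding Gas5 (-2.18) have such a run, while Rps12, Rplp0 and Ndufb2 have none within 5 bases of the annotated start. A run was present in 31 of 61 ribosomal protein genes with a start in the table (50.8%), in 8 of 13 snoRNA host genes (61.5%), in 16 of 60 respiratory chain genes (26.7%) and in 2342 of 9978 protein-coding genes (23.5%). Among the ribosomal protein genes the median log2 ratio was -0.72 with a run and -0.77 without. It was -0.44 with a run (6 of 15 genes) and -0.78 without in the list of elongation factors and other TOP mRNAs, -2.25 and -1.03 among snoRNA hosts, 0.95 and 1.51 in the respiratory chain and -0.02 and 0.03 over all protein-coding genes. The annotated start of a gene can differ from the one used in these cells. Rps12 and Rplp0 hold runs further into the printed lines, so genes counted without a run may still have one. A run is a match of letters, not a test of mTOR control.

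Of the 30 other initiation factor genes tested, kept in a list of their own, 19 were higher and 9 lower, with a median of 0.39. Relative to their length class the median was 0.18, with 17 above and 13 below. This list leaves out Eif4b (-1.34) and the eIF3 subunits counted with the TOP mRNAs. Eif2s2, a subunit of the factor that delivers the initiator tRNA, stood at 228, 217 and 227 CPM in total RNA and at 521, 693 and 701 CPM in polysomes, a log2 ratio of 1.499 ± 0.27 (SD, n = 3 pairs, adjusted p = 1.93e-08). The cap-binding protein Eif4e was at 1.34. The scaffold proteins Eif4g3 (-1.66) and Eif4g1 (-1.41) and the cap-binding inhibitor Eif4ebp2 (-1.60) were lower. Their paralogs Eif4g2 (0.68) and Eif4ebp1 (0.40) were higher. Aminoacyl-tRNA synthetases were mostly lower, 15 of 20 against 2 higher, with a median of -0.62 that was -0.20 relative to their length class. Vars (-1.88), Aars (-1.54) and Qars (-1.35) had the lowest ratios among them.

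Nuclear-encoded respiratory chain genes were higher in 65 of 71 and lower in 4 (median 1.23), mitochondrial ribosomal protein genes in 73 of 76 and lower in none (median 1.15), and proteasome subunit genes in 28 of 31 and lower in 2 (median 1.30). At least 2-fold differences numbered 45, 43 and 18 genes, against 12.7% of all genes tested. Relative to their length class the medians were still 0.70, 0.51 and 0.87. Psmb3, a subunit of the catalytic core of the proteasome, stood at 86.2, 86.2 and 87.1 CPM in total RNA and at 340, 429 and 483 CPM in polysomes. Both lowest proteasome values belonged to the largest base subunits, Psmd2 (-0.90) and Psmd1 (-0.86). The cytosolic and mitochondrial ribosomes were thus encoded by mRNAs on opposite sides: none of 76 mitochondrial ribosomal protein genes was lower, and 65 of the 82 cytosolic ones were.

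Sm proteins and small spliceosome subunits, the core of the snRNPs, were higher in 17 of 22 and lower in 2 (median 1.06), led by Sf3b6 (2.11), Snrpd1 (1.99) and Snrpd3 (1.90). SR proteins and their kinases were balanced, with 10 of 31 higher and 12 lower (median -0.02). The small SR proteins Srsf3 (1.59) and Tra2b (1.24) were higher, and the large SR-rich proteins Srrm2 (-2.24), Son (-1.78) and Srrm1 (-1.78) were lower. Replication-dependent histone mRNAs end in a stem-loop in place of a poly(A) tail. Of the 22 tested 15 were higher and none lower (median 0.96). Their median length was 126 residues, and 71.2% of all protein-coding genes of 100 to under 200 residues were higher. Relative to their length class the median was 0.16, with 16 above and 6 below. However, 44 of the 66 listed were below the filter on low counts, and those that passed were not all members. Histone genes are also near-identical copies of each other, so their counts are uncertain.

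Nuclear regulators of large size were lower in polysomes throughout. All 44 tested chromatin writers and large nuclear regulators were lower, 36 of them at least 2-fold (median -1.59, median length 2310 residues). Relative to their length class the median was -0.24, with 15 above and 29 below. Trrap, a scaffold of histone acetyltransferase complexes, fell from 111, 125 and 118 CPM to 22.9, 18.3 and 17.0 CPM, a log2 ratio of -2.61 ± 0.29 (SD, n = 3 pairs, adjusted p = 9.49e-10). Kmt2a, a histone methyltransferase, was at -2.48. Of the BAF chromatin remodelling complex 11 of 23 genes were lower and 8 higher. The median of that list was -0.22, but 0.14 relative to length class, with 12 above and 11 below. Arid1a itself had 134, 151 and 136 CPM in total RNA and 40.2, 28.8 and 24.6 CPM in polysomes, a log2 ratio of -2.19 ± 0.40 (SD, n = 3 pairs, adjusted p = 9.95e-09) with no overlap. Its paralog Arid1b (-1.64) and the ATPase Smarca4 (-2.07) were lower too, whereas the small subunits Smarce1 (0.88) and Actl6a (0.84) were higher.

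Noncoding RNAs differed by class. A class of 14 genes tested gathers the annotated biotypes not placed in another class, mostly small noncoding RNAs by name. Of these 12 were lower and none higher, with a median of -2.94. Slfn10-ps (-0.22) and 4930451G09Rik (-0.04), whose names are not those of small RNAs, were also in it. Of 51 listed nuclear and nucleolar small RNAs 43 were in the count files and 9 were tested, and the rest in the files did not pass the filter on low counts. All 9 tested were lower (median -3.26). The filter asks for counts in either fraction, so a gene near 0 in polysomes can enter through total RNA alone. The counts of lower small RNAs are therefore a description and not a test. Rpph1, the RNA of RNase P, had 14.9, 16.4 and 18.1 CPM in total RNA and 0.279, 0 and 0.315 CPM in polysomes. All 3 polysome values were near 0. Rpph1 and the other RNAs of this list, such as Rmrp (-5.09), are known from the nucleus and nucleolus. Whether their location accounts for the low ratios was not tested. All 16 snoRNA host genes tested were lower, 14 at least 2-fold (median -2.12). Gas5, a spliced host transcript, fell from 264, 269 and 285 CPM to 47.3, 65.2 and 70.3 CPM (log2 ratio -2.18 ± 0.26, SD, n = 3 pairs, adjusted p = 3.62e-09). Neat1, the scaffold of nuclear paraspeckles, fell from 234, 145 and 166 CPM to 33.7, 24.7 and 21.2 CPM (-2.78), and Malat1 of nuclear speckles was at -1.54. H19 was at -1.86. Of 445 long noncoding RNA genes tested, 166 (37.3%) were lower and 49 (11%) higher, beside 36.4% and 36.5% of all genes tested, with a median of -0.38. In the list of nuclear long noncoding RNAs 5 of 10 tested were lower and 4 higher (median -0.98). Tug1 (0.73), Mir22hg (0.73), Airn (0.79) and Hottip (1.42) were listed as nuclear noncoding RNAs and were higher in polysomes. Counting by strand was not stated, so reads of an overlapping or antisense gene may be included.

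**Figure D3:**
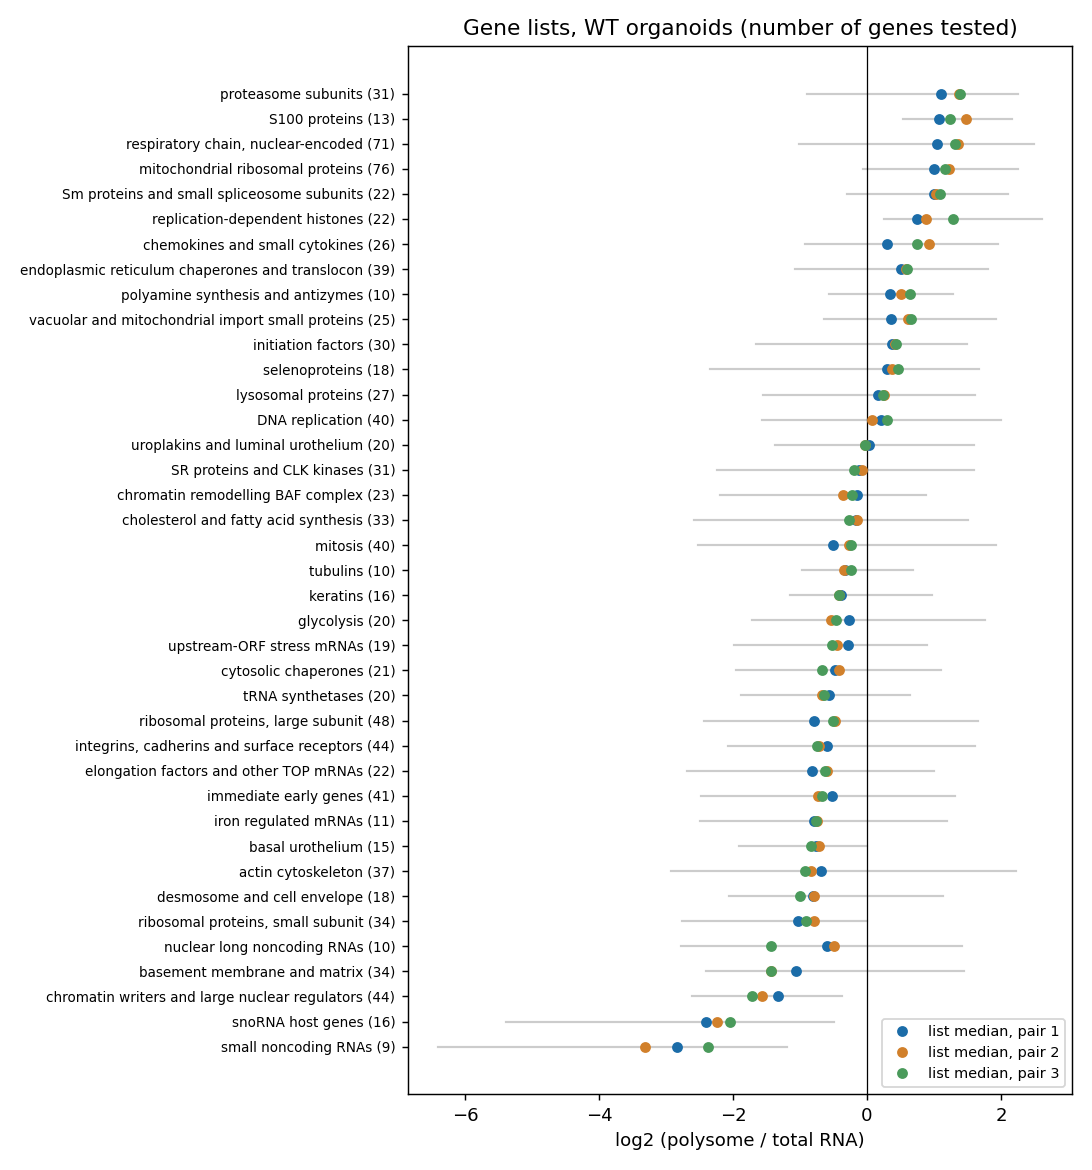
Median log2 ratio of polysome to total RNA (x axis) for the 39 gene lists with at least 9 genes tested, with the number tested in brackets. Coloured points are the list medians in the 3 pairs and grey lines run from the lowest to the highest gene of each list. Proteasome, S100 and respiratory chain lists lie highest and small noncoding RNAs and snoRNA hosts lowest, with the 3 pairs close together in most lists.

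Genes of the urothelium itself were on both sides. Of 20 luminal genes 9 were higher and 10 lower (median 0.00), and of 15 basal genes 12 were lower and none higher (median -0.85). The lists differ in coding length, with medians of 329 residues for luminal and 822 for basal genes. Relative to length class the luminal median was -0.19, with 7 above and 13 below. The basal median was then -0.34, with 5 above and 10 below, so the 2 lists lay closer together. The summed luminal level was 3819 to 4194 CPM in polysomes, while the basal sum was 7728 to 9421 CPM. Of the 6 uroplakin genes, which encode membrane proteins of superficial cells, 5 were higher and Upk3b (0.28) did not pass the test. Upk3a stood at 19.7, 18.5 and 19.9 CPM in total RNA and at 49.8, 57.8 and 69.8 CPM in polysomes (log2 ratio 1.60 ± 0.24, SD, n = 3 pairs, adjusted p = 2.19e-08). Upk3bl (1.59), Upk1a (0.83), Upk1b (0.82) and Upk2 (0.59) were higher as well. Relative to length class Upk3a was at 1.09, Upk3bl at 1.08 and Upk2 at -0.21. The luminal transcription factors Grhl3 (-1.38), Gata3 (-1.27) and Klf5 (-1.14) were lower. Luminal keratins also had lower levels in polysomes, here in CPM without TMM scaling. Krt18 had 593, 643 and 642 CPM in total RNA and 298, 305 and 351 CPM in polysomes. Krt8 had 159, 164 and 164 against 89.3, 88.2 and 104.5 CPM, and Krt20 had 6.46, 6.89 and 6.40 against 5.26, 5.04 and 4.11 CPM. In bulk libraries of this kind, a shift in the cells sampled and a difference in ribosome loading within a cell cannot be told apart.

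Col17a1, Itgb4, the receptor Notch1 (-1.66) and the cadherin Cdh3 (-1.59) had the lowest ratios of the basal genes. Col17a1, the collagen of hemidesmosomes, fell from 776, 756 and 709 CPM to 239, 186 and 175 CPM (log2 ratio -1.91 ± 0.19, SD, n = 3 pairs, adjusted p = 4.16e-09). Its partner integrin Itgb4 was at -1.77. Krt5 had 10269, 8574 and 8347 CPM in total RNA and 5432, 4324 and 4644 CPM in polysomes, with no overlap and a log2 ratio of -0.92. Its partner Krt14 had 2447, 2206 and 2068 CPM in total RNA and 2099, 2150 and 2472 CPM in polysomes. These groups overlapped, and the difference did not pass the test (adjusted p = 0.999). Among 16 keratins 10 were lower and 1, Krt17 (0.96), was higher. The basal transcription factor Trp63 was at -0.60.

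Extracellular and junction proteins were largely lower in polysomes. Basement membrane and matrix genes were lower in 30 of 34 and higher in 1 (median -1.30). Their median length was 1680 residues, and relative to their length class the median was -0.42, with 9 above and 24 below. Col4a1 (-2.41), the proteoglycan Hspg2 (-2.16) and fibronectin Fn1 (-2.04) had the lowest values of those named, and the small inhibitor of metalloproteinases Timp1 (1.45) was the one that was higher. Desmosome and cell envelope genes were lower in 15 of 18, with Jup (-2.05), Evpl (-1.89) and Plec (-1.80) lowest. The median of that list was -0.89, and -0.18 relative to length class, with 5 above and 13 below. Integrins, cadherins and surface receptors were lower in 30 of 44 with a median of -0.65, which was 0.08 relative to their length class. Within that list Lrp1 (-2.07), Notch3 (-1.99) and Notch1 (-1.66) were low, and the tetraspanins Cd63 (1.62), Cd151 (1.45) and Cd81 (1.21) were high.

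Chaperones and translocon subunits of the endoplasmic reticulum were higher in 26 of 39 and lower in 7 (median 0.55). The signal peptidase subunit Spcs1 was at 1.80 and Ssr2 of the translocon at 1.76, whereas Hyou1 was at -1.07 and Hspa5, the main chaperone, did not pass the test (202, 194 and 203 against 189, 197 and 187 CPM). All 13 S100 calcium-binding proteins tested were higher, 10 at least 2-fold (median 1.30). S100a9 rose from 9.08, 4.30 and 6.30 CPM to 33.9, 23.3 and 29.2 CPM. Chemokines and small cytokines were higher in 13 of 26 and lower in 8, and relative to their length class their median was 0.01, with 13 above and 13 below. Tslp, an epithelial cytokine, stood at 669, 477 and 624 CPM in total RNA and at 1837, 1807 and 1923 CPM in polysomes (log2 ratio 1.67 ± 0.23, SD, n = 3 pairs, adjusted p = 1.42e-08). Il18 was at 1.96, and Ccl5 (-0.93), Csf1 (-0.73) and Tnf (-0.66) were lower.

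In the actin cytoskeleton list 13 of 37 were higher and 23 lower. The non-muscle myosin heavy chain Myh9 fell from 614, 609 and 597 CPM to 133, 107 and 103 CPM (log2 ratio -2.42 ± 0.18, SD, n = 3 pairs, adjusted p = 8.18e-10). The light chain Myl6 rose from 389, 380 and 392 CPM to 1482, 2054 and 1931 CPM (2.22 ± 0.26, SD, n = 3 pairs, adjusted p = 1.8e-09). The thymosins Tmsb4x (-1.58) and Tmsb10 (-1.18), which bind actin monomers and have 44 residues each, were lower, whereas profilin Pfn1 (1.05) and cofilin Cfl1 (1.35) were higher. Actg1 was lower at -0.996 and Actb at -0.32, and Tuba1b did not pass the test.

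Of 11 iron-regulated mRNAs 6 were lower and 4 higher (median -0.76). At least 2-fold differences numbered 5 lower and 1 higher, and the highest log2 ratio in the list was 1.19. The ferritin mRNAs carry an iron-responsive element in their 5' UTR that represses them when iron is low. Fth1, the heavy chain, fell from 763, 703 and 653 CPM to 144, 113 and 122 CPM (log2 ratio -2.49 ± 0.13, SD, n = 3 pairs, adjusted p = 8.18e-10). Ftl1, the light chain, was at -2.19 ± 0.25, and both lay far below their length class, by -3.29 and -3.00. Slc25a37 (-1.58), Aco1 (-1.24) and the iron exporter Slc40a1 (-1.01) were lower too. Ireb2 (0.48) and Hmox1 (0.29) were among the 4 that were higher. The transferrin receptor Tfrc, whose iron-responsive elements lie in the 3' UTR, had 27.7, 22.2 and 27.96 CPM against 27.1, 30.6 and 34.6 CPM, groups that overlapped (0.25, adjusted p = 0.0747 without the block, where the call is lost).

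Of 19 mRNAs listed for upstream open reading frames that act in stress, 11 were lower and 7 higher (median -0.51). Uhrf1bp1 (-1.99) and the amino acid transporter Slc7a1 (-1.15) had the lowest ratios. Atf4, the main effector of that response, had 346, 322 and 340 CPM in total RNA and 237, 237 and 235 CPM in polysomes, a log2 ratio of -0.51 ± 0.06 (SD, n = 3 pairs, adjusted p = 3.09e-05). Ppp1r15a (-0.84) and Ddit3 (-0.74) were lower and the antizyme inhibitor Azin1 (0.89) was higher. Polyamine genes were higher in 7 of 10, led by Sms (1.29), while Odc1 was at -0.52.

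Immediate early genes, which encode short-lived mRNAs induced by growth factors and handling, were lower in 29 of 41 and higher in 6. Their median was -0.73, and 39 of 41 lay below the median of their length class. Zfp36, which speeds the decay of cytokine mRNAs, fell from 87.2, 76.3 and 93.7 CPM to 16.9, 13.6 and 15.5 CPM (log2 ratio -2.48 ± 0.11, SD, n = 3 pairs, adjusted p = 1.06e-09). Egr1 (-1.36), Fos (-1.22) and Jun (-0.92) were lower, and the Id genes Id2 (1.31), Id1 (0.71) and Id3 (0.61) were higher. Cytosolic chaperones were lower in 12 of 21, with Hsp90ab1 at -1.95 and Hspa1b, which has a near-identical copy, at -1.43.

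Metabolic and cell cycle genes were divided within each list. Of 20 glycolysis genes 10 were lower and 6 higher: Hk1 (-1.72) and Gpi1 (-1.56) were low, Tpi1 rose from 790, 696 and 710 CPM to 2323, 2466 and 2653 CPM (1.76), and Gapdh did not pass the test (1768, 1681 and 1728 against 1569, 1622 and 1804 CPM). Against their length class the glycolysis genes had a median of -0.57, with 5 above and 15 below. Of 33 cholesterol and fatty acid synthesis genes 17 were lower and 11 higher. The large multidomain enzymes Fasn (-2.58), Acly (-1.77) and Acaca (-1.77) were lowest, and Idi1 (1.51) was highest. DNA replication genes were even, 19 higher and 19 lower of 40, with Rpa3 (2.00), Gins1 (1.97) and Pcna (1.66) at one end and Pold1 (-1.56) and Pole (-1.27) at the other. Mitosis genes were lower in 21 of 40 and higher in 11, from Espl1 (-2.52) to Pttg1 (1.92). Their median was -0.30, but 0.19 relative to their length class, with 23 above and 17 below. Selenoproteins were higher in 9 of 18 and lower in 4, and Sepw1 stood apart with 266, 262 and 271 CPM in total RNA and 50.8, 45.4 and 61.4 CPM in polysomes (-2.35).

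The same comparison in the KO organoids shares no library with the WT one. There 8867 of 13129 genes were called (67.5%). Of the WT-higher genes that were tested in KO, 4153 of 4715 (88.1%) were called higher there and none was called lower. For WT-lower genes 4151 of 4683 (88.6%) were called lower and none higher. Across 12745 genes tested in both, Spearman's rho of the log2 ratios was 0.96 and Pearson's r was 0.96, a description across genes. Medians in KO were 1.23 for the proteasome, -0.84 for the small ribosomal subunit, -1.98 for snoRNA hosts and -1.48 for chromatin writers, against 1.30, -0.91, -2.12 and -1.59 in WT. Arid1a had a log2 ratio of -2.07 in KO.

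The ratio of no gene was shown to differ between the genotypes. The test of the difference, edgeR's interaction of genotype and fraction over 12 libraries, called 0 of 13507 genes (0%), with 326 at an unadjusted p under 0.05. DESeq2 also called 0. The absence of calls does not show that the ratios are equal. Nothing described above was therefore shown to be particular to WT.

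**Figure D4:**
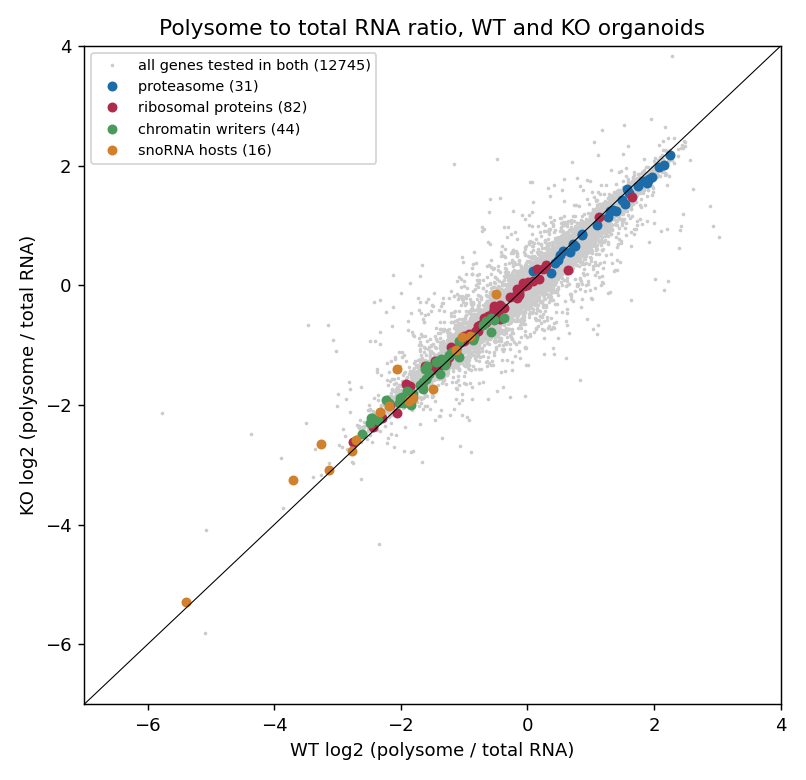
Log2 ratio of polysome to total RNA in WT (x axis) against KO organoids (y axis), each point a gene tested in both genotypes (12745 genes), with 4 gene classes coloured and the line of equal values drawn. 3 genes lie outside the axes. The coloured classes lie along the line, proteasome genes at the upper end and snoRNA hosts at the lower.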

How the data were processed

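The authors deposited raw read counts per gene symbol, whole numbers with no normalization. Per the submitters' processing notes they used Bowtie and HTSeq with the build mm10; their versions and settings were not given in these sources. RNA was extracted with a column kit and DNase I before Illumina library preparation, per the labels; no gradient protocol is given there. Groups and replicate numbers came from the labels.

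The 6 WT libraries were analysed in R 4.3.3 by the robust quasi-likelihood test of edgeR 4.0.16 (scaling by TMM, filterByExpr, Benjamini-Hochberg over all 13020 genes tested, threshold 0.05) with fraction and replicate number as terms. The median prior degrees of freedom were infinite with the block and 9.83 without it. Same-numbered libraries deviated together with correlations of 0.21, 0.06 and 0.11, so the numbers were not shown to pair cultures, and the block was kept because the comparison is defined by number. Counts of each gene were also tested with DESeq2 1.42.0, and the script was tested on simulated data. The simulation changed 200 genes, far fewer than were called here, so it cannot speak to scaling where most genes differ. Lengths and classes came from GENCODE M21 (24042 of 24421 symbols matched) and starts from RefSeq GRCm38.p6. Amino acid sequences were not used here, so the planned grouping by a hydrophobic N-terminal stretch was not run.

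The comparison, its 43 gene lists and the naming rule were chosen with earlier results of these data known. The rule named, first, 14 genes at each end of the log2 ratio, called, without overlap of the groups and with an average log2 CPM not under 4 (predicted models, clones, pseudogenes, microRNA genes and Rn45s were passed over). It also named the 3 called members of each list with the largest absolute log2 ratio and average log2 CPM of at least 3, and a fixed set. Other list members were named after their values were seen, as the ends of their list or as exceptions. Of 167 genes under the rule 162 were called, 60 higher and 102 lower. Subpolysome and cancer organoid libraries were left out, and some genes are not reported here. Alternatives were other scalings, filters and tools, no block, a fit on 12 libraries, and each pair left out.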

Additional observations from a re-analysis of the deposited data

How the results depend on the processing

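Without the replicate block 9212 genes were called in place of 9498, and 3532 in place of 3588 at 2-fold or more. Of the 162 called genes under the naming rule 2, Mki67 (adjusted p = 0.104) and Tfrc (0.0747), lost their call without the block. Every alternative gave between 8237 and 9505 calls in WT, and no gene called in both was called in the opposite direction. Leaving out each pair in turn gave 8469 to 9299 calls. Using library totals without scaling factors moved the median of all genes to -0.11 on the log2 scale and the share of calls that were higher from 50 to 44%. The rho of coding length and log2 ratio was -0.48 with no filter on low counts, -0.67 with an average log2 CPM of at least 2, and between -0.63 and -0.61 with a pair left out. For the difference between genotypes, no filter gave 10 calls, and leaving out replicate 1, 2 or 3 in both genotypes gave between 0 and 3 calls (3 without replicate 1, 2 without replicate 2). The cause of these moves was not tested. No called gene under the naming rule changed direction, and 3 of the 167 lost a call in some setting. Medians of 23 of 42 lists moved by more than the SD over pairs in some setting. Medians near 0 changed sign for the luminal list, and so did those of the fibroblast, immune, and endothelial and muscle lists, in which at most 4 genes were tested. Each library held at least 64911189 counts, and the spread rests on 3 pairs. Polysome preparation and the fraction itself cannot be told apart from any difference in library batch between the fractions.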

Other observations

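Zinc finger genes named Zfp, mostly transcription factors with many repeated fingers, showed no tilt as a class. Of 303 tested, 106 (35%) were higher in polysomes and 94 (31%) lower, with a median log2 ratio of 0.01, near the 36.5% and 36.4% of all genes tested. The other noncoding classes of the annotation were small: 16 microRNA genes had a median of -1.06 with 6 lower and 1 higher, and 89 pseudogenes a median of -0.12 with 26 lower and 19 higher.

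The metallothioneins Mt1 (-0.78) and Mt2 (-1.12), small metal-binding proteins named here after their values were seen, were lower in polysomes, as were the ferritins. The spread of the log2 ratios over genes was smaller in pair 1 (SD 0.85) than in pairs 2 (1.02) and 3 (0.99) of WT, and was 0.85, 0.86 and 1.00 in the KO pairs.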
